A study of Mus musculus with 9 samples.

Results

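The genes of cholesterol and fatty acid synthesis were followed in EYFP+ mammary cells of 3 genotypes. They were 31 genes taken by name from the 55450 genes of the count table, of which 18 act in the sterol branch, 10 in the fatty acid branch and 3 regulate both. Each of the 31 was found under its Ensembl identifier and passed the filter on low counts. All mice were adult and nulliparous, carried the K8CreERT2 driver and the lsl-EYFP reporter, and received 5 daily injections of 2 mg of tamoxifen, and the cells were sorted alive by FACS 7 days after the last dose. K8CreERT2 expresses a tamoxifen-inducible Cre recombinase from the promoter of keratin 8, a keratin of luminal cells, so that EYFP marks the cells in which Cre was active and their progeny. The control mice had no floxed gene, the LATS1/2-KO mice were LATS1/2 f/f, and the LATS1/2-Sox9-KO mice were LATS1/2 f/f and Sox9 f/f. LATS1 and LATS2 are the kinases of the Hippo pathway that inactivate the co-activators YAP and TAZ, and Sox9 is a transcription factor of luminal progenitors. Each genotype gave 3 libraries of 44167762 to 61967651 counts. Whether libraries of a group came from separate mice is not given in the labels, so p-values measure the spread between libraries.

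Values are normalized counts, that is counts scaled by edgeR's TMM factors to a library of mean size, and are listed in the order of replicates 1, 2 and 3. Fold changes and adjusted p-values come from edgeR's quasi-likelihood test on all 9 libraries with Benjamini-Hochberg adjustment over the 19357 genes tested, standard errors (SE) are those of the log2 fold change, and a gene is said to have risen or fallen where the adjusted p was at most 0.05. Lats1 had 5672, 5929 and 5940.4 normalized counts in the control libraries, 2090.1, 1923 and 2336 in the LATS1/2-KO-labelled libraries and 2058, 1844 and 1709 in the LATS1/2-Sox9-KO-labelled libraries. Lats2 did not follow the labels, with 1039, 865 and 1219.7 normalized counts in control, 1256, 1434 and 1723 in the LATS1/2-KO-labelled and 1957, 1580.4 and 1239.7 in the LATS1/2-Sox9-KO-labelled libraries and adjusted p = 0.0571 and 0.024 (edgeR) against control. Counts over the whole gene can hold reads from exons that are not deleted, so they check the label only in part. Sox9 had 23313, 19948 and 21534 normalized counts in control, 7205, 9506 and 12433 in the LATS1/2-KO-labelled libraries and 8812, 6756 and 6459.8 in the LATS1/2-Sox9-KO-labelled libraries, and was lower than control in both (adjusted p = 0.000682 and 9.39e-05, edgeR), with overlap between the deletion groups (adjusted p = 0.25). The deletion groups are therefore named by their labels.

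Cholesterol is made from acetyl-CoA through mevalonate, isoprenyl diphosphates, squalene and lanosterol, and fatty acids are made from the same acetyl-CoA by carboxylation, chain growth, elongation and desaturation. Both sets of enzymes are transcribed under the control of the SREBP proteins, which are held in the endoplasmic reticulum by Insig proteins while sterols are plentiful and move to the nucleus when sterols fall. The product of Srebf2 mainly drives sterol genes, and the main product of Srebf1 in lipogenic tissues drives fatty acid genes. The mammary epithelium is known as a lipogenic tissue because its secretory cells make the triglycerides of milk.

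The sterol and fatty acid branches moved apart in the libraries with deletions. In the LATS1/2-KO-labelled libraries, 8 of the 18 sterol genes rose and 4 fell against control, while 0 of the 10 fatty acid genes rose and 7 fell. For the fatty acid genes, the rise was 0 also at an unadjusted p below 0.05 and by DESeq2. Of the 19357 genes tested 11742 were below that p in either direction, and 5668 rose by DESeq2. Among all genes tested 28.7% rose and 27.1% fell in this comparison. The median log2 fold change was 0.25 for the sterol genes and -1.22 for the fatty acid genes, against 0.04 for all genes tested. Without Stard4, which encodes a cholesterol carrier, the median of the 17 sterol enzymes was 0.10, near that of all genes. Of these enzymes 7 rose and 4 fell, or 41.2% and 23.5%. In the LATS1/2-Sox9-KO-labelled libraries, 12 sterol genes rose and 2 fell against control, 0 fatty acid genes rose and 7 fell, and the medians were 1.01 and -1.05 against 0.01 for all genes. For the 17 sterol enzymes alone 11 rose and 2 fell, with a median of 0.95. There 29.3% of all genes tested rose and 28.7% fell, and 0 fatty acid genes rose at an unadjusted p below 0.05 or by DESeq2. In this comparison 12060 of all genes tested were below that p in either direction, and 5837 rose by DESeq2. The comparisons with control share the same 3 control libraries.

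The summed normalized counts of the 18 sterol genes were 70454, 41716 and 49873 in control, 83539.8, 87676 and 88861 in the LATS1/2-KO-labelled libraries and 124285, 109818 and 130882 in the LATS1/2-Sox9-KO-labelled libraries. The groups did not overlap, and the sum was lowest in control and highest in the LATS1/2-Sox9-KO-labelled libraries. Abundant genes weigh most in such a sum, which is not the level of each gene. Hmgcs1 had means of 6789, 20873 and 27970 in the 3 groups and Cyp51 of 6066, 13231 and 19467. Sqle, also abundant, had 9505, 10152 and 14439, and 4 of the 18 genes fell in the LATS1/2-KO-labelled libraries. The 10 fatty acid genes summed to 152390, 89354 and 104116 in control, 42413, 48806 and 58187 in the LATS1/2-KO-labelled and 54328, 43796 and 50777 in the LATS1/2-Sox9-KO-labelled libraries. Here every library with deletions lay below every control library, and the deletion groups overlapped each other.

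**Figure D1:**
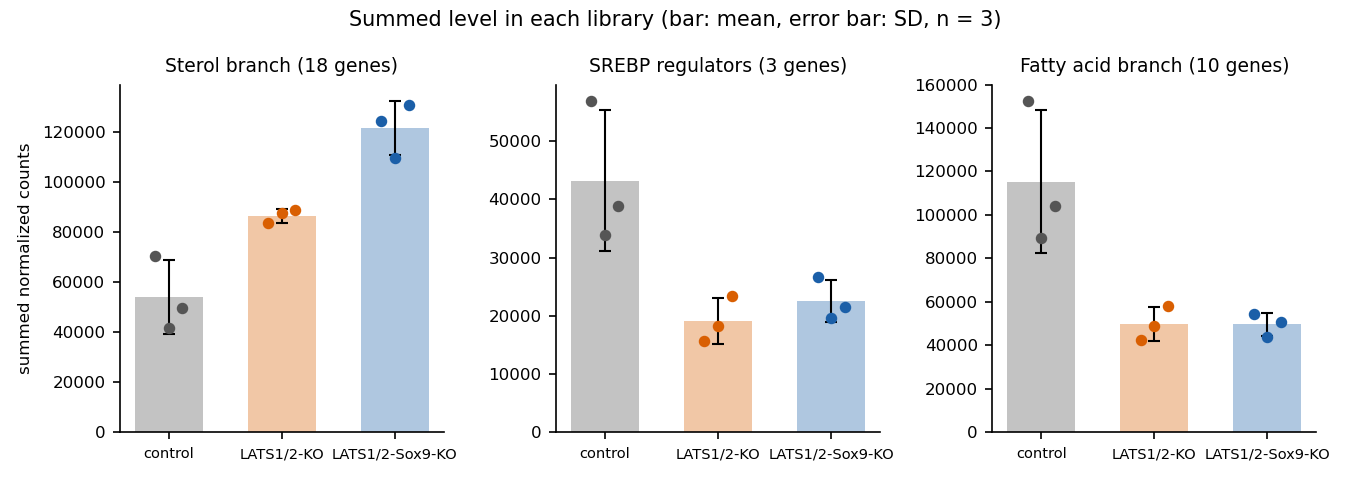
Summed normalized counts of the sterol genes, the SREBP regulators and the fatty acid genes in each library (points), with the mean (bar) and SD (error bar, n = 3 libraries) of each group. The sterol sum rises from a mean of 54015 in control to 86692 and 121662 in the deletion groups, while the fatty acid sum drops from a mean of 115287 to 49802 and 49634. Abundant genes such as Hmgcs1 weigh most in the sterol sum.

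Over the 31 genes, library 1 of the control group lay above the other control libraries. It held the highest of the 3 control values for 16 of the 18 sterol genes, for all 10 fatty acid genes and for the 3 regulators. Without it, 10 sterol genes rose and 2 fell in the LATS1/2-KO-labelled libraries and 0 fatty acid genes rose and 6 fell, and in the LATS1/2-Sox9-KO-labelled libraries the counts were 14, 2, 0 and 6. The median log2 fold change of the sterol genes in the LATS1/2-KO-labelled libraries was 0.48 without control library 1 and 0.11 without control library 2. The 4 sterol genes that fell there became 2 without LATS1/2-KO-labelled library 1 or 2. Over all genes it was control library 3 that differed most from the other controls, with a mean chi-square per gene of 131 against library 1 and 116 against library 2, where libraries 1 and 2 gave 29.5 against each other. Without control library 3, 8 sterol genes rose and 3 fell in the LATS1/2-KO-labelled libraries, and 10 and 1 in the LATS1/2-Sox9-KO-labelled libraries.

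Markers of cell types also differed between libraries, in comparisons with control where 28.7% and 29.3% of all genes tested rose and 27.1% and 28.7% fell. The luminal keratin Krt18 had 239706, 247482 and 257940 normalized counts in control, 384348, 428714 and 406769 in the LATS1/2-KO-labelled libraries and 789495, 718520 and 638918 in the LATS1/2-Sox9-KO-labelled libraries, so every library carried a keratin of luminal cells at a high level. Of 4 luminal markers 2 rose and 2 fell in the LATS1/2-KO-labelled libraries, and 2 and 1 in the LATS1/2-Sox9-KO-labelled libraries. They summed to 712890, 711019 and 803964 in control, 876154, 830062 and 839276 in the LATS1/2-KO-labelled libraries and 1457380, 1347340 and 1266030 in the LATS1/2-Sox9-KO-labelled libraries, and none was at 0. Of 11 adipocyte markers 8 were higher and 1 was lower in the LATS1/2-KO-labelled libraries than in control, and 6 and 1 in the LATS1/2-Sox9-KO-labelled libraries. Their summed normalized counts were 759.7, 618 and 560.1 in control, 510.5, 7785 and 3966 in the LATS1/2-KO-labelled libraries and 118, 2642 and 1736 in the LATS1/2-Sox9-KO-labelled libraries, with Fabp4 as the most abundant on average over the 9 libraries. The high sums belonged to libraries 2 and 3 of each deletion group. Cfd, which encodes the adipocyte protease adipsin, had at most 1 count in the other 5 libraries and 3093 and 1780.3 normalized counts in LATS1/2-KO-labelled libraries 2 and 3 and 861 and 359.8 in LATS1/2-Sox9-KO-labelled libraries 2 and 3. Adipoq, Cidec, Pck1 and Car3 were likewise at or near 0 in the control libraries and in library 1 of both deletion groups.

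A fit without those 4 libraries left 1 library in each deletion group, which was assumed to vary like the control libraries. In it fewer sterol and fatty acid genes passed, as did fewer of all genes tested, so its counts of calls are not compared. The median log2 fold changes of that fit were 0.34 and -1.33 for the sterol and fatty acid genes in the LATS1/2-KO-labelled library and 1.04 and -0.91 in the LATS1/2-Sox9-KO-labelled library. For all genes tested they were -0.06 and -0.04. The calls lost in it kept their direction. In the LATS1/2-KO-labelled library they were those of Pmvk, Mvd, Idi1, Cyp51, Msmo1, Nsdhl, Ebp, Insig1, Elovl6 and Fads2, and in the LATS1/2-Sox9-KO-labelled library those of Sqle, Ebp, Sc5d, Srebf2, Acly, Fasn, Scd1, Scd2 and Fads2.

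Some markers of epithelial cell types also moved with the genotype, in comparisons where 28.7% and 29.3% of all genes tested rose and 27.1% and 28.7% fell. Of 6 markers of hormone-sensing luminal cells 5 fell in both comparisons with control, and their summed normalized counts went from 255113, 230817 and 291469 in control to 24774, 18817 and 15523 in the LATS1/2-KO-labelled and 62321, 47949 and 40088 in the LATS1/2-Sox9-KO-labelled libraries. Prlr, which encodes the prolactin receptor, was the most abundant of them in control, and none was at 0. The sixth, Ly6a, named after its values were seen, had 6611, 11177 and 17081 normalized counts in control, 7714, 14545 and 7287 in the LATS1/2-KO-labelled libraries and 57356, 44239 and 34801 in the LATS1/2-Sox9-KO-labelled libraries, where it made up most of the sum. Of 8 secretory luminal progenitor markers, 7 of them tested, 0 rose and 2 fell in the LATS1/2-KO-labelled libraries, and 0 and 6 in the LATS1/2-Sox9-KO-labelled libraries. The falls were 28.6% of those tested in the former, near the share of all genes, and 85.7% in the latter. They summed to 107847, 111209 and 63424 in control, 68268, 98787 and 72908 in the LATS1/2-KO-labelled libraries and 43749, 38063 and 38529.9 in the LATS1/2-Sox9-KO-labelled libraries, with Aldh1a3 as the most abundant on average over the 9 libraries and the milk protein gene Wap at or near 0 throughout. Of 7 basal markers 3 rose and 2 fell in the LATS1/2-KO-labelled libraries, and 3 and 4 in the LATS1/2-Sox9-KO-labelled libraries. Their sums of 4085, 5306 and 4756 in control, 262826, 157365 and 152224 in the LATS1/2-KO-labelled and 121881, 248267 and 356248 in the LATS1/2-Sox9-KO-labelled libraries came mostly from Krt14 in the deletion groups, and none was at 0. In bulk cells, fewer cells of a type and less RNA per cell cannot be told apart. The part of the adipocyte, luminal and basal transcripts in the lipid gene results was not tested.

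Markers of fibroblasts, endothelial cells and immune cells were counted as well, in comparisons with control where 28.7% and 29.3% of all genes tested rose and 27.1% and 28.7% fell. The 8 fibroblast markers summed to 2379, 4237 and 9150.1 in control, 6172, 1386 and 2579 in the LATS1/2-KO-labelled libraries and 1925, 2634 and 4462 in the LATS1/2-Sox9-KO-labelled libraries, the groups overlapped, and Dcn was the most abundant in control. Of the 8, 3 rose and 1 fell in the LATS1/2-KO-labelled libraries, and 2 and 2 in the LATS1/2-Sox9-KO-labelled libraries. These are 37.5% and 12.5%, and 25% and 25%. The 5 endothelial markers summed to 5952, 4952 and 5825 in control, 885, 656 and 650.3 in the LATS1/2-KO-labelled and 296, 850 and 893 in the LATS1/2-Sox9-KO-labelled libraries, of which Vwf made up most in control, and 1 rose and 1 fell in each comparison with control. The 7 immune markers summed to 1124, 812 and 721 in control, 4369.8, 3091 and 2095 in the LATS1/2-KO-labelled and 3502, 3749.6 and 4787 in the LATS1/2-Sox9-KO-labelled libraries, with Csf1r as the most abundant in the deletion groups and the T cell gene Cd3e at 0 counts in every library. Of the 6 immune markers tested, 1 rose and 0 fell in the LATS1/2-KO-labelled libraries, and 2 and 0 in the LATS1/2-Sox9-KO-labelled libraries. The shares of immune markers that rose were 16.7% and 33.3%. For the endothelial markers 20% rose and 20% fell in each comparison with control. The part of these transcripts was not tested either.

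Of the mevalonate enzymes, HMG-CoA synthase rose in both deletion groups. Hmgcs1 (ENSMUSG00000093930, chr13:119690379-119708260, plus strand), which encodes the cytosolic HMG-CoA synthase, had 8901, 4283 and 7182 normalized counts in control, 17846, 22473 and 22300 in the LATS1/2-KO-labelled libraries and 29094, 24962 and 29855 in the LATS1/2-Sox9-KO-labelled libraries. No control library reached any library with deletions. The gene rose by a log2 fold change of 1.62 ± 0.23 SE (adjusted p = 0.000242, edgeR) in the LATS1/2-KO-labelled libraries and of 2.04 ± 0.24 SE (adjusted p = 5.13e-05, edgeR) in the LATS1/2-Sox9-KO-labelled libraries. The 3 other genes of the mevalonate steps among the 31 did not rise with it in the LATS1/2-KO-labelled libraries. Mvk, the mevalonate kinase, had 1078, 719 and 905 normalized counts in control and 896, 814 and 1067 in the LATS1/2-KO-labelled libraries, which overlapped. Pmvk, the phosphomevalonate kinase, had 2959, 2059 and 1847 in control and 1544, 1492 and 1424 in the LATS1/2-KO-labelled libraries and fell (log2 fold change -0.62, adjusted p = 0.0142, edgeR). Mvd, the mevalonate diphosphate decarboxylase, had 2135, 1112 and 1150 in control and 879.6, 751 and 960.4 in the LATS1/2-KO-labelled libraries and fell as well (log2 fold change -0.76, adjusted p = 0.0369, edgeR). The falls of Pmvk and Mvd did not pass without control library 1, where the log2 fold changes were -0.39 and -0.39, and that of Mvd did not pass without any of the 3 LATS1/2-KO-labelled libraries. Without the 4 libraries with adipocyte transcripts neither passed (-0.59 and -0.76, log2, adjusted p = 0.173 and 0.218, edgeR). In the LATS1/2-Sox9-KO-labelled libraries Mvk rose against control (0.95, log2, adjusted p = 0.000855, edgeR). Pmvk and Mvd did not pass there (0.35 and -0.22, log2, adjusted p = 0.123 and 0.519, edgeR). Without control library 1 Pmvk rose in the LATS1/2-Sox9-KO-labelled libraries (0.58, log2).

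Both enzymes of the isoprenyl diphosphate steps rose. Idi1, the isopentenyl diphosphate isomerase, had 427, 278 and 305 normalized counts in control, 672, 752 and 823 in the LATS1/2-KO-labelled libraries and 978, 957 and 1228 in the LATS1/2-Sox9-KO-labelled libraries. Fdps, the farnesyl diphosphate synthase, had 1103, 589 and 917 normalized counts in control, 1918, 2058 and 2002 in the LATS1/2-KO-labelled and 2730.1, 2377 and 2884 in the LATS1/2-Sox9-KO-labelled libraries. For both genes every library with deletions lay above every control library, with log2 fold changes of 1.15 and 1.20 in the LATS1/2-KO-labelled libraries and 1.65 and 1.61 in the LATS1/2-Sox9-KO-labelled libraries (adjusted p from 7.30e-05 to 0.000756, edgeR). The rise of Idi1 in the LATS1/2-KO-labelled library did not pass without the 4 libraries with adipocyte transcripts (0.98, log2, adjusted p = 0.0519, edgeR).

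The enzymes that make squalene and lanosterol did not pass in the LATS1/2-KO-labelled libraries, with log2 fold changes of 0.40 for Fdft1, 0.10 for Sqle and -0.62 for Lss (adjusted p = 0.065, 0.71 and 0.0713, edgeR). Fdft1, the squalene synthase, had 5577, 3702 and 3930.4 normalized counts in control, 6585, 5355 and 5490.4 in those libraries and 10146, 8212 and 9722 in the LATS1/2-Sox9-KO-labelled libraries, where it rose (log2 fold change 1.09, adjusted p = 0.000348, edgeR). In the LATS1/2-KO-labelled libraries Fdft1 passed without control library 1 (0.61, adjusted p = 0.00717, edgeR), with upper-quartile normalization and with the replicate block. Sqle, the squalene epoxidase, had 13118, 7284 and 8113 normalized counts in control, 10657, 9414 and 10386 in the LATS1/2-KO-labelled and 15161, 12649.8 and 15507 in the LATS1/2-Sox9-KO-labelled libraries, and its log2 fold change of 0.60 in the LATS1/2-Sox9-KO-labelled libraries passed (adjusted p = 0.0253, edgeR) with overlapping groups. This call was lost without control library 2 or 3, where the log2 fold change was 0.44 and 0.51, without LATS1/2-Sox9-KO-labelled library 1 or 3 and without the 4 libraries with adipocyte transcripts (0.70, adjusted p = 0.156, edgeR). Without control library 1 Sqle passed in the LATS1/2-KO-labelled libraries too (0.40, log2). Lss, the lanosterol synthase, had 4007, 1892 and 2406 normalized counts in control, 1622, 1506 and 2257 in the LATS1/2-KO-labelled and 3076, 2295 and 2993 in the LATS1/2-Sox9-KO-labelled libraries and passed in neither comparison with control. It fell in the LATS1/2-KO-labelled libraries by DESeq2 (-0.66, adjusted p = 0.0375), with no filter, without control library 2 and without LATS1/2-KO-labelled library 3.

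**Figure D2:**
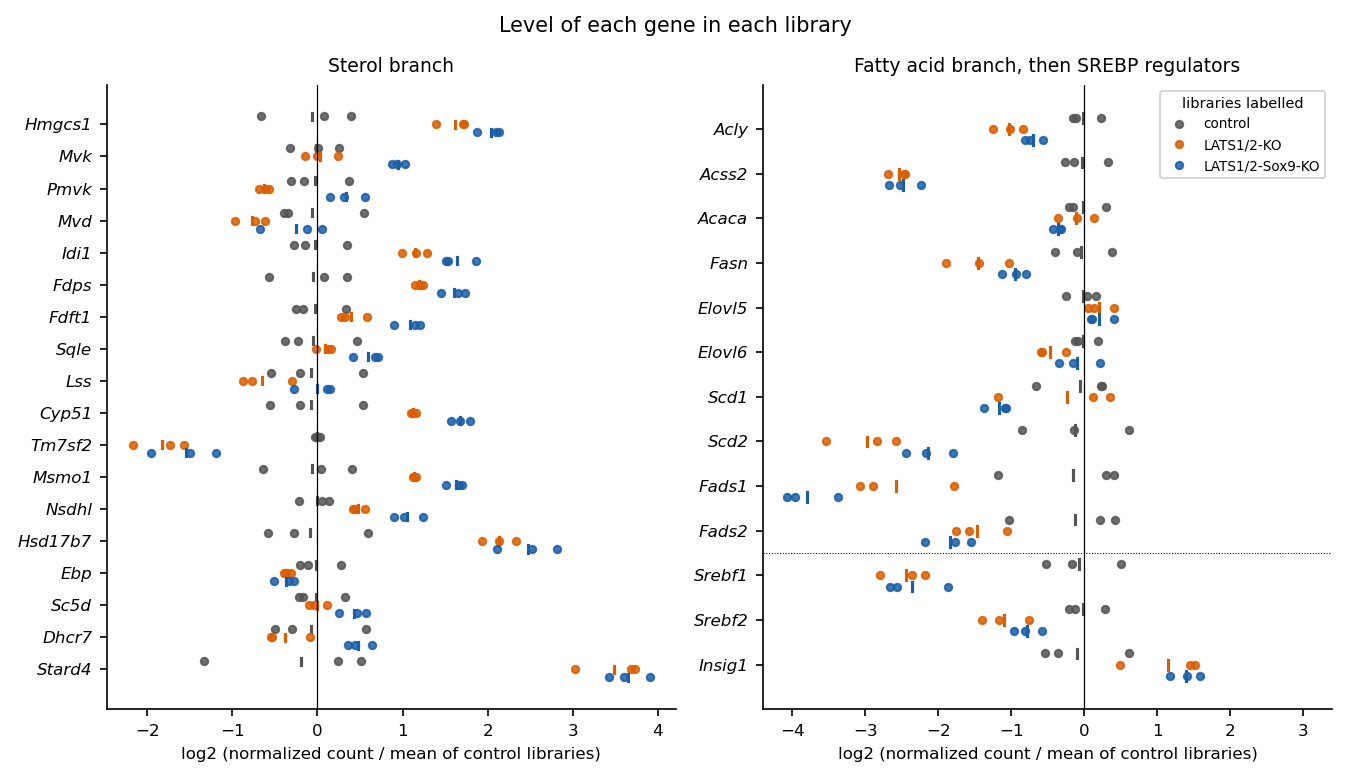
Level of each of the 31 genes in each library (points), as the log2 ratio to the mean of the 3 control libraries on the x axis, with the group mean as a vertical tick. Stard4, Hsd17b7 and Hmgcs1 lie farthest to the right in both deletion groups, and Fads1, Scd2, Acss2 and Srebf1 farthest to the left.

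Of the 8 enzymes from lanosterol to cholesterol, 4 rose and 2 fell in the LATS1/2-KO-labelled libraries, and 5 rose and 2 fell in the LATS1/2-Sox9-KO-labelled libraries. These are 50% and 25%, and 62.5% and 25%, beside 28.7% and 27.1%, and 29.3% and 28.7% of all genes tested. Hsd17b7 (ENSMUSG00000026675, chr1:169949535-169969241, minus strand), a 3-keto reductase of sterols that also reduces estrone to estradiol, had 1924, 1056 and 855 normalized counts in control, 4891, 6429 and 5608 in the LATS1/2-KO-labelled libraries and 5525, 7319 and 8973 in the LATS1/2-Sox9-KO-labelled libraries. It was 4.41-fold higher in the LATS1/2-KO-labelled libraries (log2 fold change 2.14 ± 0.29 SE, adjusted p = 0.000187, edgeR) and 5.69-fold higher in the LATS1/2-Sox9-KO-labelled libraries (log2 fold change 2.51, adjusted p = 6.32e-05, edgeR), the largest rise among the sterol enzymes. Cyp51, the lanosterol demethylase, had 8807, 4131 and 5261 normalized counts in control, 13188, 13497 and 13006 in the LATS1/2-KO-labelled and 19328, 17985 and 21087 in the LATS1/2-Sox9-KO-labelled libraries. Msmo1, the sterol C4 methyl oxidase, had 4273, 2063 and 3328 normalized counts in control, 7029, 7176 and 7083 in the LATS1/2-KO-labelled and 10244, 9170.3 and 10500.3 in the LATS1/2-Sox9-KO-labelled libraries. Nsdhl, which acts with Msmo1 in C4 demethylation, had 1915, 1503 and 1815 normalized counts in control, 2577, 2375 and 2339 in the LATS1/2-KO-labelled and 3520.1, 3262 and 4128 in the LATS1/2-Sox9-KO-labelled libraries. In these 3 genes no control library reached a library with deletions, and the log2 fold changes were 1.12, 1.14 and 0.48 in the LATS1/2-KO-labelled libraries and 1.68, 1.63 and 1.06 in the LATS1/2-Sox9-KO-labelled libraries. In the fit without the 4 libraries with adipocyte transcripts they were 1.10, 1.10 and 0.54 in the LATS1/2-KO-labelled library and did not pass (adjusted p = 0.0805, 0.0645 and 0.0631, edgeR).

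Tm7sf2 went the other way. The gene (ENSMUSG00000024799, chr19:6062821-6068373, minus strand) encodes a sterol C14 reductase and had 759.7, 789 and 774 normalized counts in control, 262, 172 and 233 in the LATS1/2-KO-labelled libraries and 339, 199 and 274 in the LATS1/2-Sox9-KO-labelled libraries. It fell by a factor of 3.48 (log2 fold change -1.80 ± 0.24 SE, adjusted p = 0.000141, edgeR) and of 2.86 (log2 fold change -1.52, adjusted p = 0.000341, edgeR). Lbr, the lamin B receptor, is known for the same reductase activity. Its values were 3241, 2897 and 2485 in control, 6529, 9184 and 8152 in the LATS1/2-KO-labelled libraries and 7733, 6797 and 6745 in the LATS1/2-Sox9-KO-labelled libraries, and it rose in both (log2 fold changes 1.47 and 1.30, adjusted p = 3.04e-05 and 4.89e-05, edgeR). The log2 fold changes of Ebp, the sterol isomerase, were -0.36 and -0.37, which passed at adjusted p = 0.0477 and 0.0392 (edgeR). Without control library 3 they were -0.21 and -0.20 and passed in neither, the call in the LATS1/2-KO-labelled libraries was lost without any single library other than control library 1, and that in the LATS1/2-Sox9-KO-labelled libraries was lost without LATS1/2-KO-labelled library 2 or 3 or any LATS1/2-Sox9-KO-labelled library. Both calls were also lost with no filter, with only the compared groups in the fit, with glmTreat against a fold change of 2 and without the 4 libraries with adipocyte transcripts, and the former with upper-quartile normalization, TMM without the 100 most counted genes and the replicate block, so that it held in 4 of the 19 alternative fits and the latter in 9. Sc5d, the lathosterol oxidase, had log2 fold changes of -0.01, which did not pass, and 0.44 (adjusted p = 0.0333, edgeR). The latter did not pass without control library 2 or 3 (0.34 and 0.37) or LATS1/2-Sox9-KO-labelled library 1 or 3 (0.38 and 0.44). Without the 4 libraries with adipocyte transcripts it was 0.59 and did not pass either. Dhcr7, the 7-dehydrocholesterol reductase, had -0.37 and 0.48 and passed in neither, and without control library 1 the latter was 0.88 and passed.

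Stard4 (ENSMUSG00000024378), a carrier that moves cholesterol between membranes, showed the largest rise of the 31 genes. It had 407, 338 and 113 normalized counts in control, 2339.8, 3803 and 3678 in the LATS1/2-KO-labelled libraries and 3076, 3465 and 4291 in the LATS1/2-Sox9-KO-labelled libraries, and the lowest library with deletions lay far above the highest control library. It was 11.4-fold higher in the LATS1/2-KO-labelled libraries (log2 fold change 3.51 ± 0.41 SE, adjusted p = 6.96e-05, edgeR) and 12.6-fold higher in the LATS1/2-Sox9-KO-labelled libraries (log2 fold change 3.65 ± 0.41 SE, adjusted p = 4.62e-05, edgeR).

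Exons of 11 of the 31 genes overlap exons of another gene in GENCODE M21, which makes their values uncertain. The study's methods give counting on the same strand, whereas the library kit that is named does not mark strand, and which of these holds was not settled. The shared part was above 10% of the exon bases in Fdps (26.7%, with Gm43738), Fdft1 (18.3%, with Ctsb), Hmgcs1 (12.1%, with Gm48342) and Tm7sf2 (12.1%, with Vps51).

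Promoter sequences were compared because SREBP proteins act with partner factors bound close by, among them NF-Y, which binds CCAAT boxes. The 250 bases before the RefSeq start were found for 24 of the 31 genes in GRCm38.p6, and were not matched for Fdps, Fdft1, Sqle, Stard4, Scd1, Scd2 and Fads1. A CCAAT box (CCAAT, either strand) lay in this window in 14 of the 14 sterol genes, 3 of the 3 regulators and 3 of the 7 fatty acid genes, counting a gene with several starts when any of them held it, and in 37.5% of the 27025 genes of the table. The sterol regulatory element with the letters TCACNCCAC was found in 1 of the 24 genes, Hmgcs1, and in 1.225% of all genes, and the E-box CACGTG in 5 of the 24 and in 6.86% of all. The motifs were searched one by one on both strands, so that matches can overlap, as 2 of the CCAAT boxes of Fasn do. These are matches of letters and not sites of binding. Among the genes that rose, Hmgcs1 carries the sterol regulatory element and 3 CCAAT boxes and Hsd17b7 an E-box and 3 CCAAT boxes. Mvk, which differed between the deletion groups, holds 5 CCAAT boxes, the fallen sterol gene Tm7sf2 holds 1, and Fasn, a fallen fatty acid gene, holds 3. These 5 promoters are shown 5′ to 3′ on the strand of the gene, with the motifs in capitals (ATTGG is the CCAAT box on the other strand).
Hmgcs1 (chr13:119690101-119690350, plus strand): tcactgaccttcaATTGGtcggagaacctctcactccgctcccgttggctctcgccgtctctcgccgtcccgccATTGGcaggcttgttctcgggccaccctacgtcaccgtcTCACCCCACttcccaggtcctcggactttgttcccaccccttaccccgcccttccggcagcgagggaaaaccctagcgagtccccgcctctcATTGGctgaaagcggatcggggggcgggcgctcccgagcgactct
Hsd17b7 (chr1:169969206-169969455, minus strand): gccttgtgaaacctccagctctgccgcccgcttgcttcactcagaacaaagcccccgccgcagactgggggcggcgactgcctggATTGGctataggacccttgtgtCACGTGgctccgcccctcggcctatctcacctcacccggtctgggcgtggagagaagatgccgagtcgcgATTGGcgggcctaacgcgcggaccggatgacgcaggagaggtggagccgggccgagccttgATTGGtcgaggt
Mvk (chr5:114444019-114444268, plus strand): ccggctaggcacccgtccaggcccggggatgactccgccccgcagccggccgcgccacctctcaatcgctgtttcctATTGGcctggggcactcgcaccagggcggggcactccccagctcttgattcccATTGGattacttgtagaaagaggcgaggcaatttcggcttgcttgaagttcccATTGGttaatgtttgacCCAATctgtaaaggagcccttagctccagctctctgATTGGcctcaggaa
Tm7sf2 (chr19:6067851-6068100, minus strand): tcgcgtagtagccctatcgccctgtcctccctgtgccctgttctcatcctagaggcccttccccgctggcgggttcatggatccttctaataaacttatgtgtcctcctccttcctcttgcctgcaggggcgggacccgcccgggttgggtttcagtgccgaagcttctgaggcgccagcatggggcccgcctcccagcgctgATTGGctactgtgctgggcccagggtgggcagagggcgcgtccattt
Fasn (chr11:120824548-120824797, minus strand): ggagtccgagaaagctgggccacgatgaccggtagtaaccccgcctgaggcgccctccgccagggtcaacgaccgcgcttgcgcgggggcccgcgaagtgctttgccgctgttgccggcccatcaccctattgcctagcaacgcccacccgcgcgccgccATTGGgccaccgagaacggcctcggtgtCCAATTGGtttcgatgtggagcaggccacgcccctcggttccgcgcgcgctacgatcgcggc

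The genes that encode the SREBP proteins fell in both deletion groups. Srebf1 (ENSMUSG00000020538, chr11:60199089-60222581, minus strand) had 25813, 12642 and 16181 normalized counts in control, 2623, 3561 and 4034 in the LATS1/2-KO-labelled libraries and 5017, 3066 and 2891 in the LATS1/2-Sox9-KO-labelled libraries. The highest library with deletions was below the lowest control library, and the gene fell by a factor of 5.35 (log2 fold change -2.42 ± 0.31 SE, adjusted p = 0.000113, edgeR) and of 4.98 (log2 fold change -2.32 ± 0.31 SE, adjusted p = 0.000122, edgeR). Gene counts do not separate the transcripts that start at different Srebf1 promoters. Srebf2 (ENSMUSG00000022463, chr15:82147181-82205379, plus strand) had 27895, 19802 and 21014 normalized counts in control, 10206, 8703 and 13632 in the LATS1/2-KO-labelled and 15388, 11811 and 13077 in the LATS1/2-Sox9-KO-labelled libraries and fell in both (log2 fold changes -1.08 and -0.77, adjusted p = 0.000937 and 0.00587, edgeR). The latter, without the 4 libraries with adipocyte transcripts, was -0.55 and did not pass (adjusted p = 0.121, edgeR). Insig1 (ENSMUSG00000045294, chr5:28071363-28078662, plus strand), which retains SREBP in the endoplasmic reticulum and is itself a target of SREBP, had 3186, 1438 and 1619 in control, 2932, 5968 and 5715 in the LATS1/2-KO-labelled libraries and 6269, 4732 and 5539.8 in the LATS1/2-Sox9-KO-labelled libraries. It rose in both (log2 fold changes 1.23 and 1.41, adjusted p = 0.0103 and 0.00475, edgeR), although LATS1/2-KO-labelled library 1 lay below control library 1. Without the 4 libraries with adipocyte transcripts the log2 fold change in the LATS1/2-KO-labelled library was 0.47 and did not pass (adjusted p = 0.444).

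Of 9 further genes of SREBP processing and sterol sensing, 5 rose and 2 fell in the LATS1/2-KO-labelled libraries, and 4 and 2 in the LATS1/2-Sox9-KO-labelled libraries. These are 55.6% and 22.2%, and 44.4% and 22.2%, beside 28.7% and 27.1%, and 29.3% and 28.7% of all genes tested. Scap, the escort of SREBP to the Golgi, had 7881, 7474 and 6871 normalized counts in control, 3007, 2856 and 4525 in the LATS1/2-KO-labelled libraries and 3880.3, 3637 and 3510.4 in the LATS1/2-Sox9-KO-labelled libraries, and fell (log2 fold changes -1.10 and -1.01, adjusted p = 0.000354 and 0.000519, edgeR). Tmem97, a sterol-regulated membrane protein, Ufd1, which acts in protein degradation at the endoplasmic reticulum, and Mbtps2, the site-2 protease that releases SREBP, rose in both, with log2 fold changes of 0.96, 0.92 and 0.83 in the LATS1/2-KO-labelled and 1.24, 0.90 and 0.69 in the LATS1/2-Sox9-KO-labelled libraries. Scap was the only one of the 9 that changed more than 2-fold in the LATS1/2-KO-labelled libraries, where 17.1% of all genes tested rose and 17.5% fell by more than 2-fold.

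**Figure D3:**
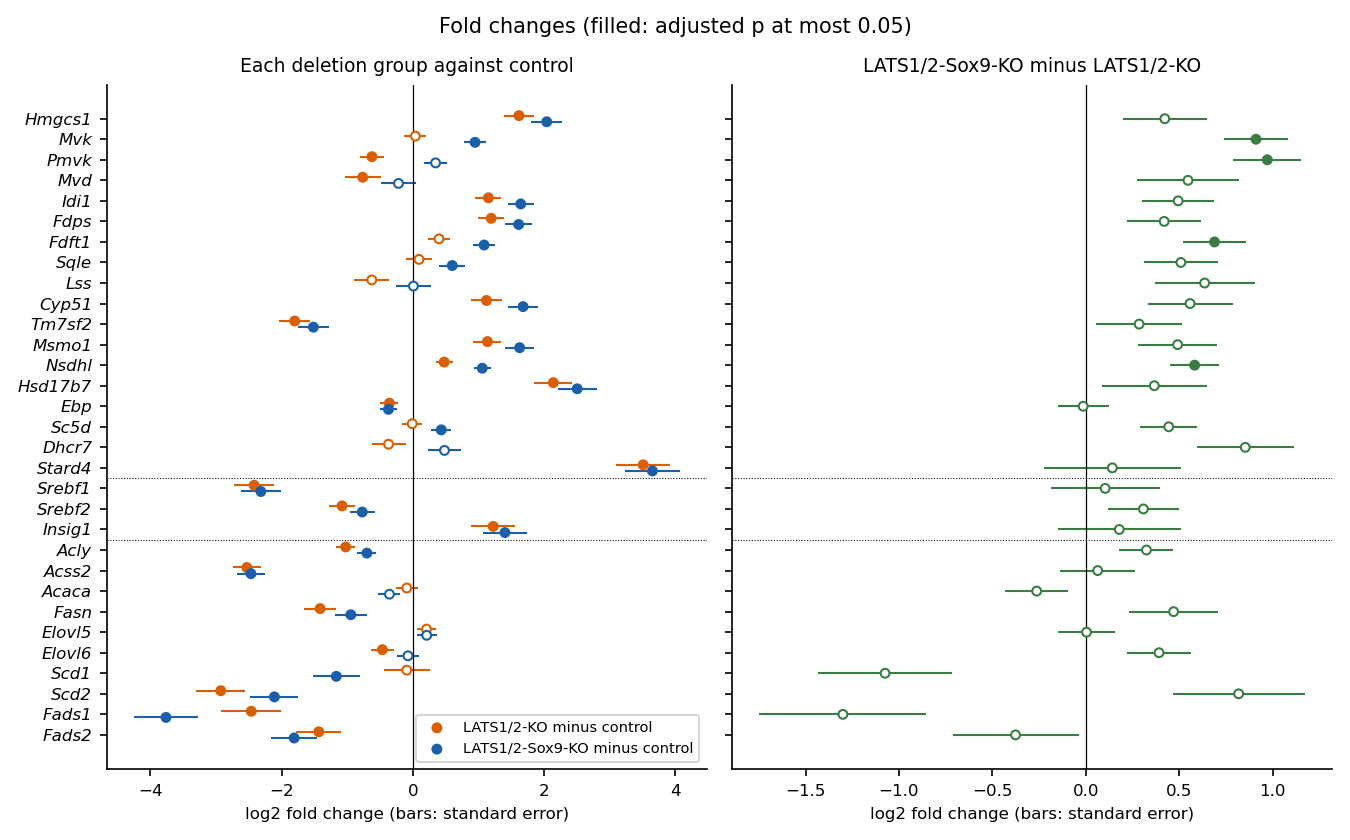
Log2 fold change (x axis) with its standard error (bar) for the sterol genes, the SREBP regulators and the fatty acid genes, separated by dotted lines, in the comparisons with control (left) and between the deletion groups (right). Filled points passed an adjusted p of 0.05, and on the right these are Mvk, Pmvk, Fdft1 and Nsdhl only.

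Both genes for sources of cytosolic acetyl-CoA fell. Acly (ENSMUSG00000020917, chr11:100476353-100528000, minus strand), the ATP citrate lyase that makes cytosolic acetyl-CoA, had 23886, 18154 and 18695 normalized counts in control, 10061, 8509.9 and 11315 in the LATS1/2-KO-labelled libraries and 13723, 11539 and 12147 in the LATS1/2-Sox9-KO-labelled libraries. Acss2 (ENSMUSG00000027605, chr2:155517948-155585724, plus strand), which makes acetyl-CoA from acetate, had 1670.2, 1106 and 1205 normalized counts in control, 239.7, 207 and 243 in the LATS1/2-KO-labelled and 230.2, 282 and 208 in the LATS1/2-Sox9-KO-labelled libraries. The values of both genes were lower in every library with deletions than in any control library. Acss2 fell by a factor of 5.78 (log2 fold change -2.53 ± 0.21 SE, adjusted p = 9.63e-06, edgeR) and of 5.53 (log2 fold change -2.47 ± 0.21 SE, adjusted p = 7.96e-06, edgeR), and Acly by less (log2 fold changes -1.02 and -0.70, adjusted p = 0.000237 and 0.00215, edgeR). The fall of Acly in the LATS1/2-Sox9-KO-labelled library did not pass without the 4 libraries with adipocyte transcripts (-0.54, log2, adjusted p = 0.0943, edgeR).

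The enzymes of palmitate synthesis differed from each other. Fasn (ENSMUSG00000025153, chr11:120805846-120824547, minus strand), the fatty acid synthase, had 31337, 18103 and 22381 normalized counts in control, 8857, 6426 and 11689.5 in the LATS1/2-KO-labelled libraries and 13822, 10948 and 12566 in the LATS1/2-Sox9-KO-labelled libraries, without overlap with control. It fell by a log2 fold change of -1.41 ± 0.24 SE (adjusted p = 0.000766, edgeR) and -0.94 ± 0.24 SE (adjusted p = 0.00691, edgeR), and the latter was -0.77 and did not pass without the 4 libraries with adipocyte transcripts (adjusted p = 0.117, edgeR). Acaca, the acetyl-CoA carboxylase of the same pathway, had 2664, 1870 and 1956 normalized counts in control, 1689.9, 2025 and 2375 in the LATS1/2-KO-labelled and 1725, 1604 and 1745 in the LATS1/2-Sox9-KO-labelled libraries and passed in neither comparison with control. Of the 2 elongases among the 31 genes, Elovl6 passed, in 1 of the comparisons with control. Elovl5, an elongase of polyunsaturated chains, had log2 fold changes of 0.21 and 0.21, and Elovl6, the elongase of palmitate, had -0.46 and -0.07, of which the former passed (adjusted p = 0.0406, edgeR). The Elovl6 call was lost without control library 1 or 2, without LATS1/2-KO-labelled library 2 or 3, and without LATS1/2-Sox9-KO-labelled library 2, with log2 fold changes from -0.51 to -0.36 among these. It was also lost with upper-quartile normalization (-0.42, log2), the replicate block (-0.46) and without the 4 libraries with adipocyte transcripts (-0.26).

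Of the 4 desaturases, 3 fell in the LATS1/2-KO-labelled libraries and 4 in the LATS1/2-Sox9-KO-labelled libraries. These are 75% and 100%, beside 27.1% and 28.7% of all genes tested. Scd2 (ENSMUSG00000025203, chr19:44293674-44306864, plus strand), a stearoyl-CoA desaturase that makes monounsaturated fatty acids, had 47431, 17229 and 28276 normalized counts in control, 5204, 2676 and 4339 in the LATS1/2-KO-labelled libraries and 8905, 5701 and 6919.7 in the LATS1/2-Sox9-KO-labelled libraries. It fell by a factor of 7.61 (log2 fold change -2.93 ± 0.38 SE, adjusted p = 0.000126, edgeR) and of 4.32 (log2 fold change -2.11 ± 0.37 SE, adjusted p = 0.000706, edgeR). Fads1 (ENSMUSG00000010663, chr19:10182888-10196877, plus strand), the delta-5 desaturase of polyunsaturated fatty acids, had 9859, 9099 and 3267 normalized counts in control, 879, 998 and 2156 in the LATS1/2-KO-labelled and 718, 442 and 476 in the LATS1/2-Sox9-KO-labelled libraries. Control library 3 lay well below the other controls but above every library with deletions, and the log2 fold changes were -2.46 ± 0.46 SE (adjusted p = 0.00123, edgeR) and -3.76 ± 0.49 SE (adjusted p = 0.000109, edgeR). Fads2, the delta-6 desaturase, had 9793, 8494 and 3574 normalized counts in control, 2442, 2167 and 3491 in the LATS1/2-KO-labelled and 2496, 1601 and 2142 in the LATS1/2-Sox9-KO-labelled libraries, with the same low control library. It fell in both (log2 fold changes -1.43 and -1.81, adjusted p = 0.00521 and 0.00132, edgeR). Neither change of Fads2 passed without the 4 libraries with adipocyte transcripts (-1.60 and -1.52, adjusted p = 0.0885 and 0.0964, edgeR), nor did that of Scd2 in the LATS1/2-Sox9-KO-labelled library (-1.78, adjusted p = 0.0634, edgeR). Elf5, a transcription factor of secretory progenitors, was also lowest in control library 3 among the controls, with 5851, 6382 and 2413 normalized counts, a gene chosen after its values were seen, and its part in the Fads1 and Fads2 values was not tested.

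Scd1 did not follow Scd2 in every library. It had 19665, 10476 and 19564 normalized counts in control, 7345, 21187 and 18129 in the LATS1/2-KO-labelled libraries and 7829, 6414 and 7915 in the LATS1/2-Sox9-KO-labelled libraries. The LATS1/2-Sox9-KO-labelled libraries were all below control (log2 fold change -1.17, adjusted p = 0.018, edgeR), whereas the LATS1/2-KO-labelled libraries overlapped control (log2 fold change -0.09 ± 0.35 SE, adjusted p = 0.846, edgeR). Over the 19 alternative fits the log2 fold change in the LATS1/2-KO-labelled libraries ranged from -1.19 to 0.25. Among the LATS1/2-KO-labelled libraries, libraries 2 and 3 were high and were also the libraries with the highest summed adipocyte markers, and library 1, with Cfd at 0 counts, was below every control library. The LATS1/2-Sox9-KO-labelled libraries did not show this pairing. There libraries 2 and 3, which also held adipocyte transcripts, had 6414 and 7915 beside 7829 in library 1. The part of the adipocyte transcripts in the Scd1 values was not tested. The call in the LATS1/2-Sox9-KO-labelled libraries was lost without control library 1 or 3 (log2 fold change -1.02 in both fits), without LATS1/2-Sox9-KO-labelled library 2 and without the 4 libraries with adipocyte transcripts (-1.06, adjusted p = 0.0887, edgeR). Scd1 and Scd2 are similar in sequence, and reads that fit both equally were not counted.

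**Figure D4:**
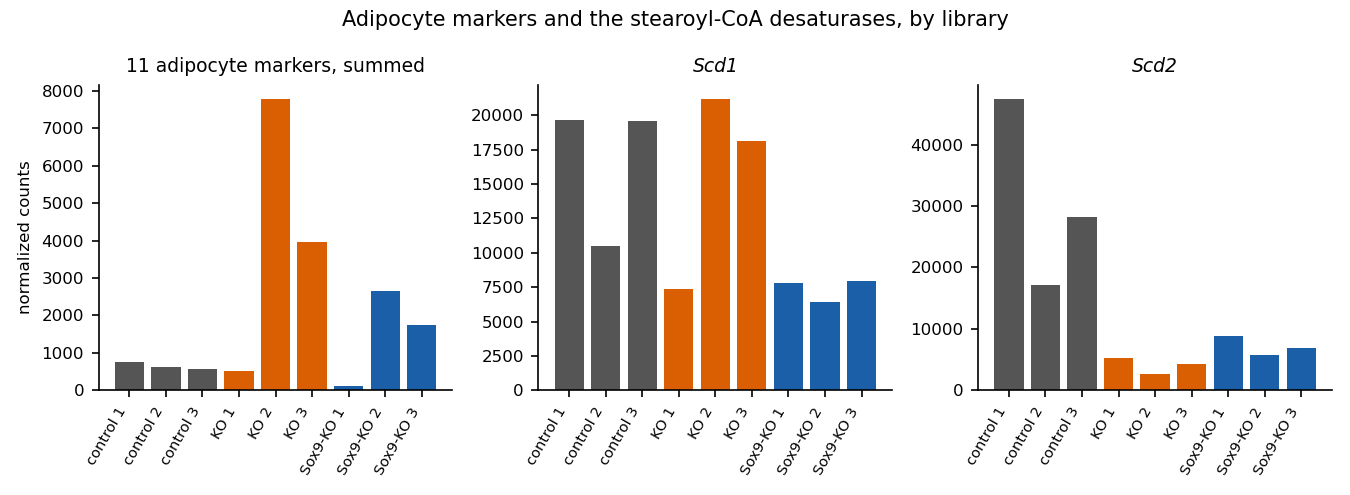
Normalized counts in each library of the 11 adipocyte markers together, of Scd1 and of Scd2, with control in grey, LATS1/2-KO-labelled libraries (KO) in orange and the LATS1/2-Sox9-KO-labelled libraries (Sox9-KO) in blue. LATS1/2-KO-labelled libraries 2 and 3 have the highest adipocyte sums, 7785 and 3966, and Scd1 at the level of control, while their Scd2 is low. LATS1/2-Sox9-KO-labelled libraries 2 and 3 have sums of 2642 and 1736, with Scd1 at 6414 and 7915 beside 7829 in library 1.

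The order of the transcripts per length changed with these shifts. Levels per length are given as FPKM, computed here as counts scaled by the TMM-scaled library size and by the length of the union of exons in GENCODE M21. In control the highest levels were those of Scd2 at 105 ± 52, Acly at 71.3 ± 11.1, Scd1 at 62.9 ± 20, Srebf1 at 60.1 ± 22.5 and Srebf2 at 59.2 ± 11.3 FPKM (SD, n = 3), and these neighbours did not differ beyond their spread. In the LATS1/2-KO-labelled libraries Hmgcs1 led with 84.4 ± 10.6 FPKM (SD, n = 3), followed by Scd1 with 59.1 ± 27.6 and Cyp51 with 55.7 ± 1.04, of which Scd1 overlapped both in its spread. In the LATS1/2-Sox9-KO-labelled libraries Hmgcs1 had 113 ± 10.6 FPKM (SD, n = 3), Cyp51 81.9 ± 6.55 and Sqle 48.4 ± 5.22, which lay beyond each other's spread. The lowest levels in both deletion groups were those of Tm7sf2 (0.938 ± 0.194 and 1.14 ± 0.295 FPKM, SD, n = 3) and Acss2 (0.42 ± 0.0364 and 0.439 ± 0.0697 FPKM, SD, n = 3).

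The LATS1/2-Sox9-KO-labelled libraries were compared with the LATS1/2-KO-labelled libraries to ask how the groups differ by the added Sox9 f/f alleles. Since the Sox9 counts of these groups overlapped, the comparison is one of the labelled groups. Of the 18 sterol genes 4 were higher and 0 lower, and of the 10 fatty acid genes and 3 regulators 0 passed in either direction. Among all genes tested 3.13% were higher and 3.33% lower. At an unadjusted p below 0.05, 11 sterol genes were higher and 0 lower, 3 fatty acid genes were higher and 2 lower, and 0 regulators differed. Of the 19357 genes tested 4380 were below that p in either direction. By DESeq2 5 sterol genes were higher and 0 lower, 0 fatty acid genes were higher and 2 lower, and 0 regulators differed. DESeq2 gave 1311 of the 19357 genes as higher and 1298 as lower. The median log2 fold change of the sterol genes was 0.50 and 17 of the 18 were above 0, and the fatty acid genes had a median of 0.03, against -0.02 for all genes tested. All 3 LATS1/2-Sox9-KO-labelled libraries lay above all 3 LATS1/2-KO-labelled ones for 13 of the 18 sterol genes and for 14.6% of all genes tested.

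The 4 genes that passed stand at different steps. Mvk had 896, 814 and 1067 normalized counts in the LATS1/2-KO-labelled libraries and 1832, 1659 and 1727 in the LATS1/2-Sox9-KO-labelled libraries (log2 fold change 0.91 ± 0.17 SE, adjusted p = 0.016, edgeR). Pmvk, the next kinase, had 1544, 1492 and 1424 in the former and 3372, 2526 and 2839 in the latter (log2 fold change 0.97 ± 0.18 SE, adjusted p = 0.0164, edgeR). The values of these kinases did not overlap between the groups, and those of Pmvk in the LATS1/2-Sox9-KO-labelled libraries overlapped control. Fdft1 and Nsdhl differed by less, with log2 fold changes of 0.69 (adjusted p = 0.0405, edgeR) and 0.58 (adjusted p = 0.0313, edgeR). The calls of Fdft1 and Nsdhl were each lost in 7 of the 19 alternative fits, among them those without LATS1/2-KO-labelled library 2 or 3 or any LATS1/2-Sox9-KO-labelled library, and those of Mvk and Pmvk in 3, among them those without LATS1/2-Sox9-KO-labelled library 2 for Mvk and without LATS1/2-KO-labelled library 3 for Pmvk. The count of 4 went to 1 without LATS1/2-KO-labelled library 3 or LATS1/2-Sox9-KO-labelled library 2, to 2 without LATS1/2-KO-labelled library 2 or LATS1/2-Sox9-KO-labelled library 1 or 3, to 7 without control library 1, and to 0 without the 4 libraries with adipocyte transcripts, where the median log2 fold change of the sterol genes was 0.59. With only these groups in the fit it was 8, with Sqle, Cyp51, Msmo1 and Dhcr7 added.

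The largest differences among the fatty acid genes did not pass. Fads1 had 879, 998 and 2156 normalized counts in the LATS1/2-KO-labelled libraries and 718, 442 and 476 in the LATS1/2-Sox9-KO-labelled ones, without overlap and with a log2 fold change of -1.30 (95% interval from -2.18 to -0.42, adjusted p = 0.118, edgeR). Scd1 had -1.07 (adjusted p = 0.109, edgeR) and Scd2 0.82 (adjusted p = 0.205, edgeR). By DESeq2 Fads1 and Scd1 passed, with log2 fold changes of -1.29 and -1.06 (adjusted p = 0.0226 and 0.0247), and both also passed with no filter on low counts (adjusted p = 0.0429 and 0.0399, edgeR). Scd1 also passed without LATS1/2-KO-labelled library 1 (-1.41, log2). Without LATS1/2-KO-labelled library 3 the log2 fold change of Fads1 was -0.78. Without the 4 libraries with adipocyte transcripts that of Fads1 shrank to -0.25 and that of Scd1 turned to 0.14, and neither passed (adjusted p = 0.915 and 0.925, edgeR).

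Other genes of lipid metabolism were grouped to place the 31 genes. Of 16 further sterol and isoprenoid enzymes, 8 rose and 4 fell in the LATS1/2-KO-labelled libraries, and 9 and 2 in the LATS1/2-Sox9-KO-labelled libraries. These are 50% and 25%, and 56.2% and 12.5%, beside 28.7% and 27.1%, and 29.3% and 28.7% of all genes tested. Besides Lbr the group held Pdss1, a subunit of the synthase that makes the side chain of ubiquinone, with 148, 172 and 151 normalized counts in control, 521, 789.6 and 905 in the LATS1/2-KO-labelled libraries and 746, 882 and 904 in the LATS1/2-Sox9-KO-labelled libraries. It rose by log2 fold changes of 2.23 and 2.42 (adjusted p = 2.71e-05 and 1.29e-05, edgeR). Zmpste24, the protease that matures prenylated prelamin A, rose (0.92 and 0.82, log2), and Dhdds, a subunit of the prenyltransferase of dolichol synthesis, fell (-0.75 and -0.50).

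Of 12 genes of sterol efflux, esterification and the sterol sensor LXR, 2 rose and 5 fell in the LATS1/2-KO-labelled libraries, and 3 and 7 in the LATS1/2-Sox9-KO-labelled libraries. These are 16.7% and 41.7%, and 25% and 58.3%, beside 28.7% and 27.1%, and 29.3% and 28.7% of all genes tested. Nr1h3, which encodes LXR alpha, a known activator of Srebf1 transcription, had 589, 569 and 473 normalized counts in control, 68.2, 89.8 and 62.9 in the LATS1/2-KO-labelled libraries and 65.9, 51.8 and 61 in the LATS1/2-Sox9-KO-labelled libraries. It fell by log2 fold changes of -2.88 and -3.19 (adjusted p = 8.72e-06 and 4.00e-06, edgeR). Soat1, which esterifies cholesterol, fell (-1.59 and -1.14, log2), as did Lpcat3, which remodels phospholipids (-1.19 and -0.78), while Nceh1, a cholesteryl ester hydrolase, rose from 524, 688 and 520.2 normalized counts in control to 2745, 4741 and 3374 in the LATS1/2-KO-labelled and 2859, 3972 and 3623 in the LATS1/2-Sox9-KO-labelled libraries.

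Of 26 further genes of fatty acid synthesis and elongation, 25 were tested, 8 rose and 4 fell in the LATS1/2-KO-labelled libraries, and 9 and 6 in the LATS1/2-Sox9-KO-labelled libraries. The shares of 32% higher and 16% lower in the former and 36% and 24% in the latter stand beside those of all genes tested (28.7% and 27.1%, and 29.3% and 28.7%). Hacd1, a dehydratase of the elongation cycle, had 10.4, 15.9 and 1.24 normalized counts in control, 217, 288 and 275 in the LATS1/2-KO-labelled libraries and 168, 264 and 276 in the LATS1/2-Sox9-KO-labelled libraries. Its relative Hacd2 had 442, 493 and 315 in control, 1411, 1101 and 1187 in the LATS1/2-KO-labelled and 1399.9, 1702 and 1714 in the LATS1/2-Sox9-KO-labelled libraries. Both rose, with log2 fold changes of 4.79 and 1.56 in the LATS1/2-KO-labelled libraries. Fads3, which lies beside Fads1 and Fads2 and belongs to the same family, rose (log2 fold changes 1.48 and 1.97, adjusted p = 0.00145 and 0.000236, edgeR), while Acacb, the mitochondrial acetyl-CoA carboxylase, fell (-1.46 and -3.52, adjusted p = 0.0359 and 0.00049).

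Of 18 genes of glycerolipid synthesis and lipid droplets, 3 rose and 11 fell in the LATS1/2-KO-labelled libraries, and 4 and 10 in the LATS1/2-Sox9-KO-labelled libraries. The shares were 16.7% and 61.1%, and 22.2% and 55.6%, beside 28.7% and 27.1%, and 29.3% and 28.7% of all genes tested. Dgat2, which completes triglyceride synthesis, had 21779.8, 18422 and 32903 normalized counts in control, 639, 155 and 337 in the LATS1/2-KO-labelled libraries and 128, 74.7 and 104 in the LATS1/2-Sox9-KO-labelled libraries, and fell by log2 fold changes of -6.02 and -7.89 (adjusted p = 1.11e-05 and 3.15e-06, edgeR). Btn1a1, a protein of milk fat globules, went from 33963, 31369.8 and 10453 in control to 879, 2595 and 1809 in the LATS1/2-KO-labelled and 1039.7, 1896 and 1773 in the LATS1/2-Sox9-KO-labelled libraries. Lipe, the hormone-sensitive lipase, fell too (-2.60 and -2.15, log2). Plin2, a coat protein of lipid droplets, rose from 4857, 5377 and 3577 in control to 31438, 26541 and 29145 in the LATS1/2-KO-labelled and 39323, 60796 and 52519 in the LATS1/2-Sox9-KO-labelled libraries (log2 fold changes 2.66 and 3.47, adjusted p = 5.54e-06 and 1.22e-06, edgeR), and it was higher in the LATS1/2-Sox9-KO-labelled libraries than in the LATS1/2-KO-labelled libraries as well (log2 fold change 0.81, adjusted p = 0.0335, edgeR).

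Of 11 genes of fatty acid uptake and binding, 10 were tested, 4 rose and 3 fell in the LATS1/2-KO-labelled libraries, and 3 and 3 in the LATS1/2-Sox9-KO-labelled libraries, shares of 40% and 30%, and 30% and 30%, beside the same shares of all genes tested. Fabp5, a fatty acid binding protein of epithelia, had 165, 142 and 49.8 normalized counts in control, 1189, 2563 and 2354 in the LATS1/2-KO-labelled libraries and 1335, 2371 and 2259.8 in the LATS1/2-Sox9-KO-labelled libraries and rose by log2 fold changes of 4.09 and 4.06 (adjusted p = 5.83e-05 and 4.96e-05, edgeR). Vldlr, a lipoprotein receptor, rose (2.36 and 2.36, log2) and Slc27a1, a fatty acid transporter, fell (-1.98 and -2.88). Lpl, the lipoprotein lipase, had 225, 181 and 42.3 in control and 158, 1681 and 853 in the LATS1/2-KO-labelled libraries, and its highest values were those of libraries 2 and 3 with adipocyte transcripts. It rose there (log2 fold change 2.58, adjusted p = 0.0169, edgeR), and the part of the adipocyte transcripts in it was not tested. Of 20 genes of fatty acid oxidation, 3 rose and 7 fell in both comparisons with control, or 15% and 35% beside 28.7% and 27.1% of all genes in the LATS1/2-KO-labelled libraries and 29.3% and 28.7% in the LATS1/2-Sox9-KO-labelled libraries. In the LATS1/2-KO-labelled libraries 2 rose and 3 fell by more than 2-fold. None of these 3 falls is named here, and 2 of them were of genes with a mean below 100 normalized counts in each group. The lowest log2 fold change of the list there was -2.30. Acadl, a mitochondrial acyl-CoA dehydrogenase, and Etfdh, which passes electrons of such enzymes to ubiquinone, rose (log2 fold changes 1.11 and 1.02 in the LATS1/2-KO-labelled libraries and 1.22 and 0.63 in the LATS1/2-Sox9-KO-labelled libraries). Acadvl, the dehydrogenase of very long chains, fell (-0.93 and -1.10), by less than 2-fold in the LATS1/2-KO-labelled libraries. Between the deletion groups at most 2 genes of any of these 7 lists were higher and at most 2 lower. The highest shares were 8.33% higher and 16.7% lower, both among the 12 genes of sterol efflux and esterification, beside 3.13% and 3.33% of all genes tested.

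**Figure D5:**
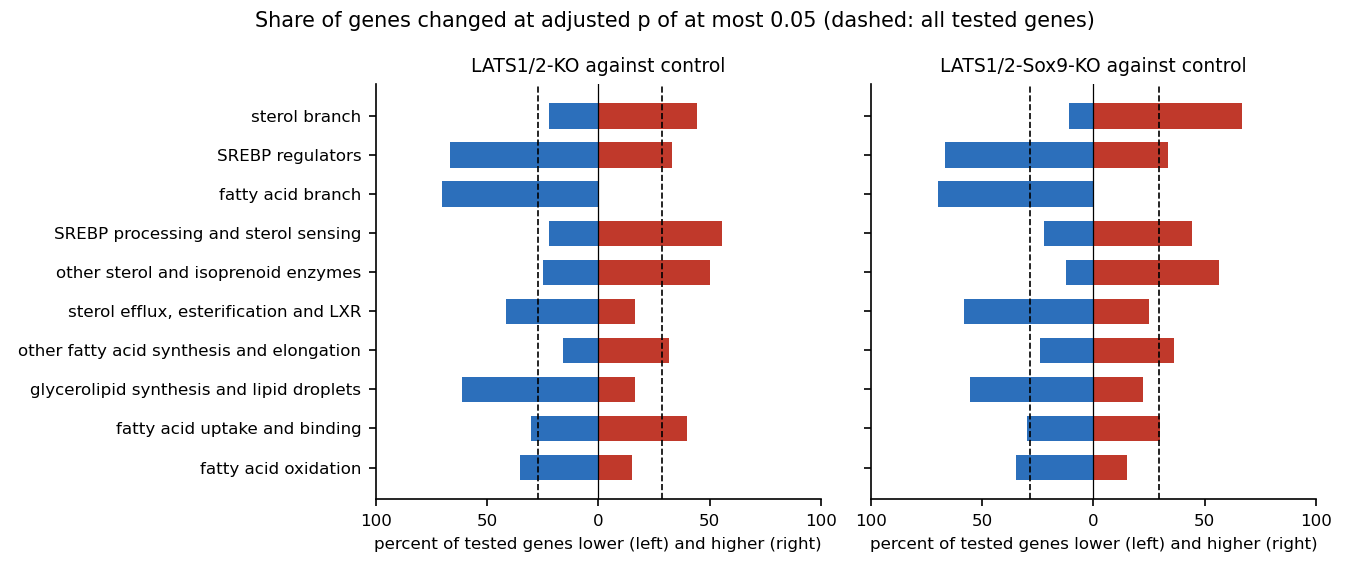
Percent of the tested genes of each list that were lower (blue, left) and higher (red, right) at an adjusted p of at most 0.05 in each comparison with control. Dashed lines give the percent of all tested genes, 27.1% lower and 28.7% higher on the left and 28.7% lower and 29.3% higher on the right; 70% of the fatty acid branch is lower in both and none of it is higher.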

How the data were processed

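RNA of EYFP+ live cells sorted from mammary glands was sequenced in 9 libraries. The deposited file holds raw read counts per gene, which the authors made with STAR (version 2.6.0c, mm10) and featureCounts (Subread 1.6.2, Ensembl annotation) from uniquely aligned read pairs of nuclear genes, per the study's methods on the same strand, although the kit named does not mark strand. Gene names, exon lengths and coordinates came from GENCODE M21 on GRCm38 and promoters from RefSeq on GRCm38.p6. Counts were filtered with filterByExpr, scaled by TMM and tested with edgeR 4.0.16 (quasi-likelihood, all 9 libraries, Benjamini-Hochberg over 19357 genes, adjusted p of at most 0.05), after a check on simulated data. In that check edgeR recovered 40% of simulated log2 changes of 1 and 95% of those of 2, at a set spread between libraries. A gene that did not pass can therefore still differ. The members and lists were chosen with earlier results of these data known. Named were all members, Lats1, Lats2, Sox9, the called genes of each pathway list with the largest log2 fold change against control in the LATS1/2-KO-labelled libraries (at most 4, with a mean of 100 normalized counts or more in the higher group), and the most abundant marker of each cell type and those at or near 0. An item that this rule names is not reported here. Depth was 44167762 to 61967651 counts per library, and intervals cover the spread between libraries. Altogether 19 alternative fits were made, among them DESeq2, other normalizations and filters, a replicate block, glmTreat and each library left out.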

Additional observations from a re-analysis of the deposited data

How the results depend on the processing

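Of 589 log2 fold changes of the 31 genes over 19 alternative fits in each comparison, 512, 537 and 530 kept their direction and their side of the threshold in the LATS1/2-KO-labelled libraries against control, the LATS1/2-Sox9-KO-labelled libraries against control, and between these groups. In the same order 20, 11 and 23 changed sign. With glmTreat against a fold change of 2, a stricter test by construction, the genes changed by more than 2-fold were 1962 higher and 2043 lower, 2240 and 2468, and 18 and 14, the sterol genes 3 higher and 1 lower, 7 and 1, and 0 higher, and the fatty acid genes 3 and 4 lower against control. Without the 4 libraries with adipocyte transcripts, an alternative chosen after seeing the data that leaves fewer libraries, the sterol genes were 4 higher and 1 lower in the LATS1/2-KO-labelled libraries and 1 lower in the LATS1/2-Sox9-KO-labelled libraries, where 2 fatty acid genes were lower, and between the deletion groups 52 genes were higher and 24 lower by more than 2-fold and 0 sterol genes were higher. The fit without the 4 libraries left 1 library in each deletion group, and fewer of all genes tested passed in it as well. Its counts, among them the 2 fatty acid genes, are therefore not compared with those of the other fits. Between the deletion groups DESeq2 gave 479 genes higher and 730 lower by more than 2-fold and 2 fatty acid genes lower, and no filter also gave 2 of the latter. With only the 2 groups compared in the fit, 8 sterol genes were higher there. The sterol genes lower in the LATS1/2-Sox9-KO-labelled libraries against control were 1 with no filter and 1 with only the 2 groups compared. The cause of these differences was not tested.

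With each library left out in turn, the genes higher by more than 2-fold numbered between 2994 and 3509 and the lower ones between 3174 and 3767 in the LATS1/2-KO-labelled libraries, 3265 to 3658 and 3423 to 4122 in the LATS1/2-Sox9-KO-labelled ones, and 121 to 497 and 78 to 582 between these groups. Sterol genes higher numbered 8 to 10 and 10 to 14 against control and 1 to 7 between the deletion groups, sterol genes lower 2 to 4 and 1 to 2 against control, and fatty acid genes lower 6 to 7 in both comparisons with control and 0 to 1 between the deletion groups.

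The log2 fold changes that changed sign did not pass in the fit reported. In the LATS1/2-KO-labelled libraries, Mvk was -0.029 without the 4 libraries with adipocyte transcripts, and Sc5d was 0.035 with upper-quartile normalization, 0.0046 by TMM without the 100 most counted genes, 0.0028 with no filter, 0.016 with 2 groups, 0.0078 with the replicate block and 0.090 without the 4 libraries. In the LATS1/2-Sox9-KO-labelled libraries, Mvd was 0.073 without the 4 libraries and Lss was -0.016 by DESeq2, -0.016 with RLE and -0.0097 with a minimum of 10 counts in every library. Between the deletion groups Ebp was 0.018 with no filter and 0.021 without the 4 libraries, Acss2 was -0.014 without the 4 libraries, Acaca was 0.074 without the 4 libraries, Elovl5 was -0.049 with upper-quartile normalization, -0.0062 with a minimum of 10 counts in every library, -0.0015 with 2 groups and -0.28 without the 4 libraries, Elovl6 was -0.061 without the 4 libraries, Scd1 was 0.14 without the 4 libraries and Fads2 was 0.076 without the 4 libraries. With each library left out, the ranges were Mvk from -0.10 to 0.19, Sqle from -0.068 to 0.40, Sc5d from -0.11 to 0.18, Dhcr7 from -0.58 to 0.028, Acaca from -0.21 to 0.087 and Scd1 from -0.39 to 0.25 in the LATS1/2-KO-labelled libraries, Mvd from -0.38 to 0.16, Lss from -0.20 to 0.38 and Elovl6 from -0.23 to 0.069 in the LATS1/2-Sox9-KO-labelled libraries, and Ebp from -0.044 to 0.077, Stard4 from -0.050 to 0.29, Srebf1 from -0.17 to 0.27, Insig1 from -0.082 to 0.38, Acss2 from -0.041 to 0.18 and Elovl5 from -0.088 to 0.12 between them.

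Replicate numbers were not shown to pair the libraries: deviations from the group means correlated at -0.066 to 0.17 between libraries of 1 number, and not every library correlated best with its own number. With the number as a replicate block, 1 fatty acid gene was higher between the deletion groups, Scd2 (log2 fold change 0.85, adjusted p = 0.0274, edgeR).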
